A study of Rattus norvegicus with 46 samples.

Results

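The genes described here are 10 genes of the antioxidant response: Slc7a11, Gclc, Gclm, Gsr, Srxn1, Txnrd1, Hmox1, Nqo1, the metallothionein gene Mt2A and Nfe2l2. They were taken by gene name, each name stands on 1 row, and they are 10 of the 30045 genes in each of 4 count tables. Lungs and whole blood came from male Fischer 344 rats, called aged in the study's title, and their RNA was sequenced after whole-body inhalation of filtered air or of crystalline silica dust (Min-U-Sil 5, a fine respirable quartz). Exposure lasted 5 days with 6 hours of 15 mg/m3 silica each, and the rats were killed 1 day or 6 months later. The labels of all 8 groups give the same strain, no genetic change and no second agent, and globin messenger RNA was depleted from the blood RNA. The groups hold 6 samples each, except the air lungs of 6 months with 4, which gives 46 samples.

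Within lung, 5 pairs of samples of the same group differed by little more than counting noise, with 7.69% to 9.64% of genes differing in a chi-square test against 21.3% to 73.1% in the other 46 lung pairs. Each of these pairs was averaged and counted as 1 library, named by both sample numbers. This leaves 4 air and 6 silica lungs at 1 day, and 2 air (19-24 and 20-25) and 5 silica lungs at 6 months, beside 6 libraries in every blood group. The 2 air lungs of 6 months also stood apart from every other lung library in markers of natural killer cells and large granular lymphocytes, whose summed level was 3978 and 4885 CPM (counts scaled by library size) there and 299.7 to 1576 CPM in the other 15. Total counts were 13369307 to 24638413 in lung samples and 10631870 to 17519950 in blood samples. Tissue markers fitted the labels: the surfactant gene Sftpc was at 4803 to 18671 CPM in lung and at 0 to 0.212 CPM in blood, and the erythroid gene Alas2 at 27.2 to 94.6 CPM in lung and at 11395 to 73367 CPM in blood.

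NRF2, encoded by Nfe2l2, is a transcription factor that KEAP1 holds in the cytoplasm and sends to degradation. Oxidants and electrophiles modify KEAP1, NRF2 then accumulates in the nucleus, pairs with small MAF proteins and binds antioxidant response elements (ARE) near its target genes, while BACH1 competes for the same sites. In lung this system protects epithelium and macrophages against inhaled oxidants and particles. Metallothioneins are small cysteine-rich proteins that bind zinc, copper and cadmium, and the factor MTF1 induces them through metal response elements (MRE).

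Promoter sequences are shown for 4 genes because they bear the 2 kinds of element differently and because 3 of the genes rose in silica lungs while Gclm did not. The windows come from RefSeq on build GRCr8, whereas the counts were made on another build, Rnor_6.0. RefSeq windows of 300 bases, from 250 before to 50 after the start, matched 8 of the 10 genes by symbol. The 250 bases before the start are printed 5′ to 3′ in the direction of the gene, with matches to the ARE core TGACNNNGC or to the MRE core TGCGCNC or TGCACNC, on either strand, in capitals. Mt2A lies on the minus strand of chromosome 19 (chr19:10838709-10838958), Gclm on the plus strand of chromosome 2 (chr2:213031885-213032134), Srxn1 on the plus strand of chromosome 3 (chr3:161064562-161064811) and Slc7a11 on the minus strand of chromosome 2 (chr2:136668265-136668514).
Mt2A: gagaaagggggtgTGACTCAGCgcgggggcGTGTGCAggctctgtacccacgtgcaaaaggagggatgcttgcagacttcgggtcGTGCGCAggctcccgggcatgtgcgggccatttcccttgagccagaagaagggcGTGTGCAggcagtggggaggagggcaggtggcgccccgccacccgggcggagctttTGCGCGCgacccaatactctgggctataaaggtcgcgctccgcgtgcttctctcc
Gclm: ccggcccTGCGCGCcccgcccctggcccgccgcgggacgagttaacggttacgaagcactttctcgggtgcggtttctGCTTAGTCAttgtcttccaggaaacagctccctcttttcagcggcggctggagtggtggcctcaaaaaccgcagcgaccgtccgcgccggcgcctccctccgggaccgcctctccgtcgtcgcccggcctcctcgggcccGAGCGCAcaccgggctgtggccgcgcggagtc
Srxn1: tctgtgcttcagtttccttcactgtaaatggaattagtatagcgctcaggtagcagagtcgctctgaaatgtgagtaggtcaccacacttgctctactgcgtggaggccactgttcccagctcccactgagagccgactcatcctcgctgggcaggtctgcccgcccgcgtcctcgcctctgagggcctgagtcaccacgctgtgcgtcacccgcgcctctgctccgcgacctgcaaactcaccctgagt
Slc7a11: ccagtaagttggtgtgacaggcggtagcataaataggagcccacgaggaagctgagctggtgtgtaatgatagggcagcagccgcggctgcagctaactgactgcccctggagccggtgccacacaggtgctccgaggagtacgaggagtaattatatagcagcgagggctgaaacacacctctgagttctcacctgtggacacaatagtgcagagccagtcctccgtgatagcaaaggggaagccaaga

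In Mt2A the window holds 1 ARE core match, whose first letters also spell a site for AP-1 factors, and 4 MRE core matches. Gclm has 1 ARE core match, on the minus strand, and 2 MRE core matches. Srxn1 and Slc7a11 have no match to either pattern in this window. Of the 8 genes with a window, 4 had an ARE core match: Gclm, Mt2A, Txnrd1 in 1 of its windows, and Nfe2l2 just after its start. An ARE core match stood in 12.1% and an MRE core match in 24.2% of all 33469 RefSeq promoter windows of this length. These matches are descriptions of sequence and were not tested as binding sites.

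In lung 1 day after silica, 5 of the 10 genes rose: Slc7a11, Hmox1, Srxn1, Mt2A and, by a smaller step, Txnrd1. After 6 months 7 were higher than in air: the first 4 again, and Nqo1, Gsr and Nfe2l2 itself. These 6-month calls rest on 2 air libraries. Those for Nqo1, Gsr and Nfe2l2 were lost with the air lungs of 1 day as the reference. The 2 subunits of the enzyme that starts glutathione synthesis, Gclc and Gclm, passed the test at neither time, and Gclm had its lowest values in silica lungs. In blood none of the 9 genes that could be tested passed at either time. Calls are from edgeR's quasi-likelihood test at an adjusted p under 0.05, and fold changes are log2 of silica over air with the standard error (SE). Among all genes 11.7% were called in lung at 1 day (7.61% higher) and 19.6% at 6 months (9.51% higher). The median log2 fold change of the 10 genes was 0.16 at 1 day and 0.60 at 6 months, against 0.0011 and -0.0026 over all genes tested. At 6 months, with 2 air libraries, air and silica ranges overlapped for none of the 10 genes. The share of all genes without overlap was not counted at either time, so a lack of overlap is description only. Fewer cells of a type and less RNA per cell cannot be told apart in such whole-tissue samples.

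**Figure D1:**
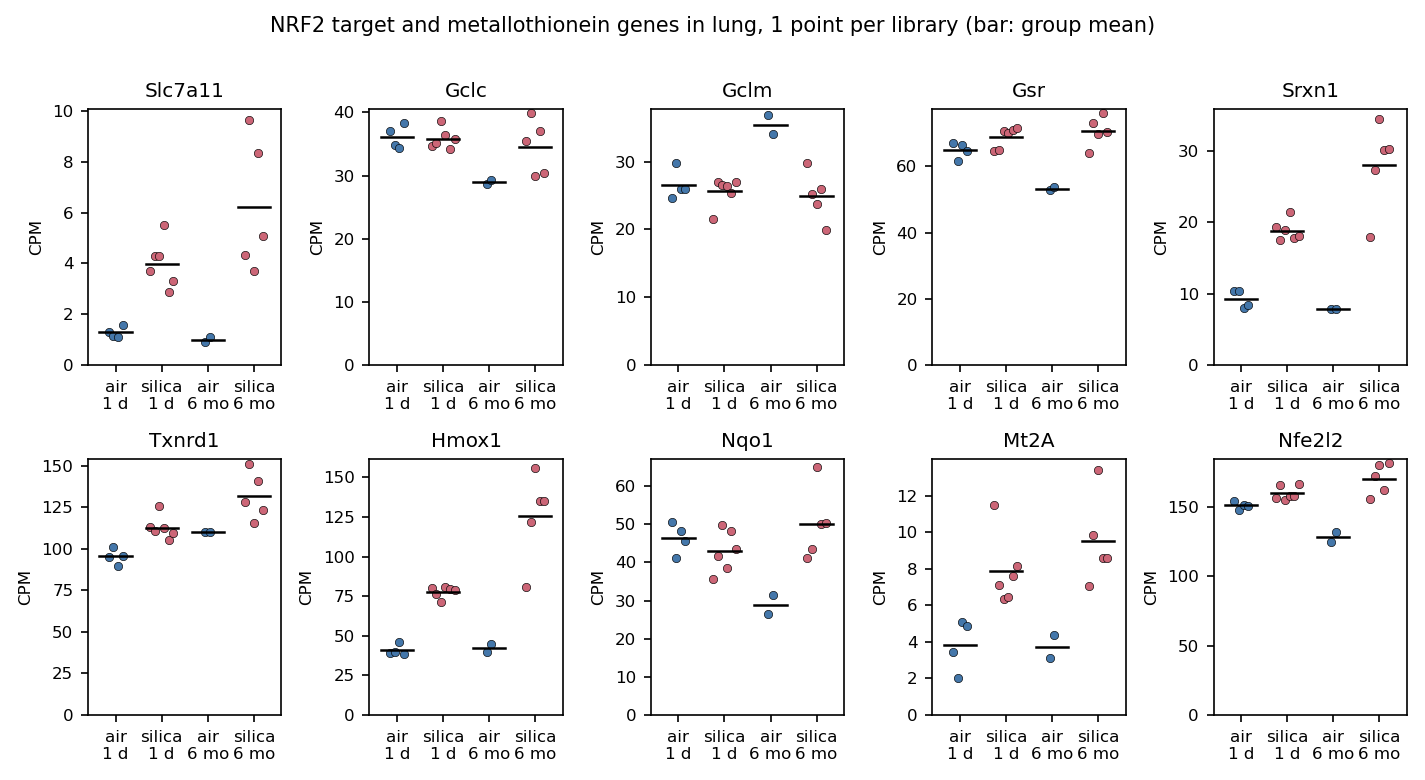
CPM of the 10 genes (y axes, linear from 0) in lung libraries of the 4 groups, with 1 point per library and a bar at the group mean. Slc7a11, Srxn1, Hmox1, Mt2A and, by smaller steps, Txnrd1 and Nfe2l2 are higher in every silica library than in any air library of the same time. At 6 months, with 2 air libraries, the air and silica ranges overlap for none of the 10 genes, which include genes that did not pass the test. The share of all genes without overlap was not counted, so this is description only. Nqo1, Gsr, Gclc and Nfe2l2 are lower, and Gclm and Txnrd1 are higher, in the 2 air lungs of 6 months than in all 4 air lungs of 1 day. CPM of the 2 times were scaled separately. Slc7a11 and Srxn1 are lower by steps too small to read across that scaling, and neither passed between the air lungs in 1 edgeR fit of the 4 lung groups (adjusted p = 0.566 and 0.497).

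Slc7a11 encodes the transport subunit of the exchanger that brings cystine into the cell for glutathione synthesis. Its level was 1.12, 1.15, 1.31 and 1.60 CPM in the air lungs of 1 day and 2.88 to 5.50 CPM in the silica lungs (median 3.999), so the groups did not overlap. The difference was 1.62 ± 0.21 (SE) on the log2 scale, a 3.08-fold rise (adjusted p = 2.12e-04). These are small counts, 15 to 26 per air library. At 6 months Slc7a11 stood at 0.924 and 1.09 CPM in air and at 3.71, 4.32, 5.09, 8.35 and 9.62 CPM in silica. The rise was 6.14-fold (log2 2.62 ± 0.48, adjusted p = 0.0119), the largest of the 10 genes at either time, and silica lungs 32 and 34 held the highest values. Slc3a2, the partner chain of the exchanger, named here after its values were seen, went the other way at 1 day by a small step (log2 -0.14 ± 0.04, adjusted p = 0.0227).

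Gclc encodes the catalytic subunit of glutamate-cysteine ligase, the rate-limiting enzyme of glutathione synthesis, and Gclm its modifier subunit. Gclc was at 34.4, 34.8, 37.0 and 38.3 CPM in the air lungs of 1 day and at 34.2 to 38.6 CPM (median 35.5) in silica (log2 -0.01 ± 0.05, adjusted p = 0.917). At 6 months its air lungs held 28.7 and 29.3 CPM and its silica lungs 29.9 to 39.9 CPM (log2 0.25 ± 0.15, adjusted p = 0.262). Gclc thus did not pass in lung at either time, and passed at 6 months with each library as a separate sample (adjusted p = 0.0396). Gclm was at 24.7, 26.0, 26.0 and 29.8 CPM in air and at 21.5 to 27.02 CPM in silica at 1 day (log2 -0.05 ± 0.07, adjusted p = 0.731). At 6 months it was at 34.02 and 36.8 CPM in air and at 19.9, 23.8, 25.2, 25.9 and 29.8 CPM in silica (log2 -0.51 ± 0.16, adjusted p = 0.0577). The 6-month groups did not overlap, and Gclm was the 1 gene of the 10 lower in every silica lung than in every air lung. The call for Gclm depended on the fit: it passed with DESeq2 (adjusted p = 0.0287), with all 4 lung groups in 1 fit (0.00277), with each library as a separate sample (0.00811) and without silica library 30-31 (0.0314).

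Gsr encodes glutathione reductase, which returns oxidised glutathione to its reduced form with NADPH. At 1 day it was at 61.5, 64.7, 66.5 and 67.2 CPM in air and at 64.5 to 71.7 CPM in silica, overlapping ranges (log2 0.08 ± 0.05, adjusted p = 0.285). At 6 months it was at 52.8 and 53.7 CPM in air and at 63.9, 69.8, 70.4, 73.1 and 76.0 CPM in silica. This is a 1.33-fold difference (log2 0.41 ± 0.11, adjusted p = 0.0348). The silica values of the 2 times overlap, whereas both late air values lie below all 4 early ones.

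Srxn1 encodes sulfiredoxin, which restores overoxidised peroxiredoxins. It was at 7.995, 8.48, 10.3 and 10.3 CPM in the air lungs of 1 day and at 17.5 to 21.4 CPM (median 18.5) in silica, a 2.03-fold rise (log2 1.02 ± 0.09, adjusted p = 1.30e-05). At 6 months it was at 7.91 and 7.92 CPM in air and at 17.9, 27.3, 30.0, 30.2 and 34.4 CPM in silica, a 3.53-fold rise (log2 1.82 ± 0.26, adjusted p = 0.00696). The groups did not overlap at either time. Txnrd1 encodes the cytosolic thioredoxin reductase, which keeps thioredoxin reduced. At 1 day it was at 90.0, 95.3, 95.7 and 101.1 CPM in air and at 105.5 to 125.9 CPM (median 111.5) in silica, a 1.18-fold rise (log2 0.24 ± 0.05, adjusted p = 0.00761) that was no longer called with all 4 lung groups in 1 fit (adjusted p = 0.0941). At 6 months Txnrd1 was at 110.1 CPM in both air lungs and at 115.6, 123.3, 128.0, 141.0 and 150.9 CPM in silica (log2 0.26 ± 0.13, adjusted p = 0.207), and it passed with each library as a separate sample (adjusted p = 0.0269).

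Hmox1 encodes haem oxygenase 1, which breaks haem down to biliverdin, iron and carbon monoxide. At 1 day it was at 38.7, 38.9, 40.1 and 46.0 CPM in air and at 71.3 to 80.9 CPM (median 79.1) in silica. This 1.90-fold rise (log2 0.93 ± 0.06) had the smallest adjusted p of the 10 genes, 3.53e-07, and the silica lungs lay close together. At 6 months Hmox1 was at 39.8 and 44.6 CPM in air and at 80.5, 122.0, 134.9, 135.2 and 155.7 CPM in silica, a 2.97-fold rise (log2 1.57 ± 0.25, adjusted p = 0.00882). Silica library 30-31 was the lowest there and lay at the level of the 1-day silica lungs. Nqo1 encodes a quinone reductase that uses NADPH and is a classical NRF2 target. At 1 day Nqo1 was at 41.0, 45.7, 48.2 and 50.6 CPM in air and at 35.6 to 49.9 CPM (median 42.6) in silica (log2 -0.11 ± 0.09, adjusted p = 0.522). At 6 months it was at 26.4 and 31.4 CPM in air and at 41.1, 43.5, 50.02, 50.4 and 65.1 CPM in silica, a 1.73-fold difference (log2 0.79 ± 0.20, adjusted p = 0.0296). Apart from the one at 65.1 CPM, the late silica values lie at about the range of the air lungs of 1 day, and both late air values lie below it. CPM of the 2 times were scaled separately, so values at the edge of that range cannot be placed.

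Of the metallothionein genes found by name Mt2A was the one with counts: Mt1m, Mt3 and Mt4 were each at 0.224 CPM or less in every lung library. No row bore the name Mt1, so the level of that metallothionein gene is not known here. At 1 day Mt2A was at 2.04, 3.45, 4.85 and 5.08 CPM in air and at 6.32 to 11.5 CPM (median 7.35) in silica, a 2.04-fold rise (log2 1.03 ± 0.25, adjusted p = 0.0199). Counts were 32 to 79 per air library and 102 to 176 per silica library. The rise was no longer called without air library 02-07 (log2 0.97, adjusted p = 0.0651). At 6 months Mt2A was at 3.12 and 4.37 CPM in air and at 7.07, 8.60, 8.61, 9.87 and 13.4 CPM in silica, a 2.53-fold rise (log2 1.34 ± 0.29, adjusted p = 0.0196). The gene's estimated count was not whole in 6 of 46 samples (13.04%), so some of its reads were shared with other sequences.

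Nfe2l2 itself was at 148.1, 150.7, 151.7 and 153.9 CPM in the air lungs of 1 day and at 155.0 to 166.8 CPM (median 157.9) in silica. The groups did not overlap, but the step of log2 0.08 ± 0.03 did not pass (adjusted p = 0.165). At 6 months it was at 124.7 and 132.1 CPM in air and at 155.5, 162.2, 172.1, 180.4 and 181.5 CPM in silica, a 1.33-fold difference (log2 0.41 ± 0.11, adjusted p = 0.0409). Its estimated count was not whole in 9 of 46 samples (19.6%).

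**Figure D2:**
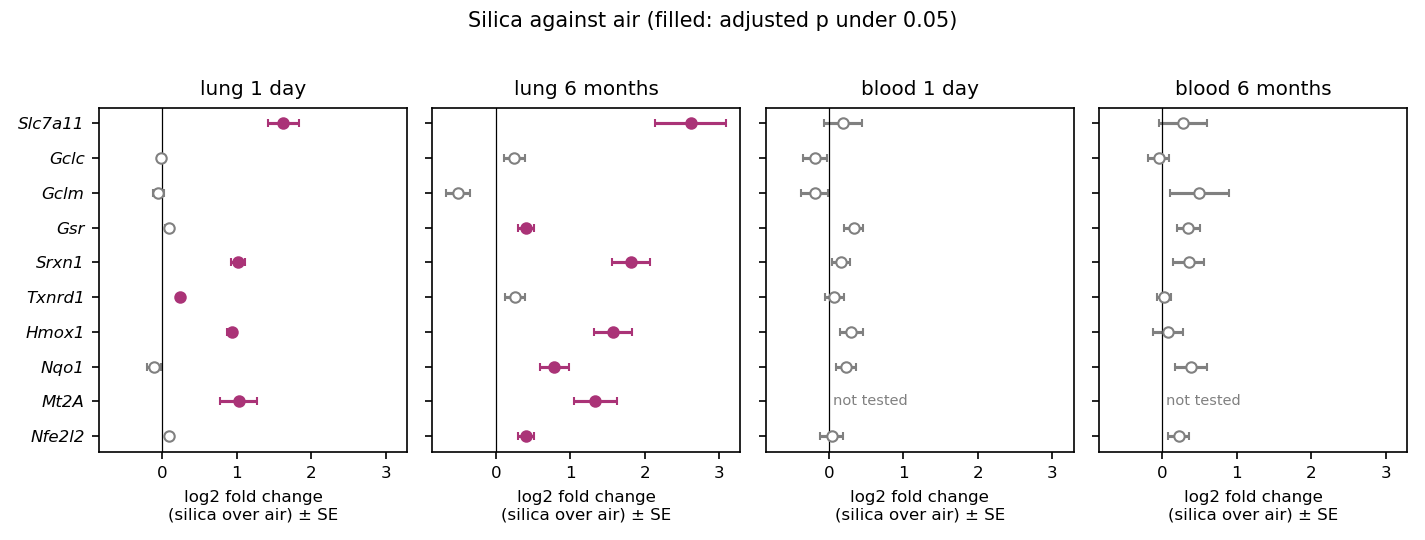
Log2 fold change of silica over air with its SE (x axes) for the 10 genes in each tissue and time, filled where the adjusted p is under 0.05. At 1 day 5 genes and at 6 months 7 genes are filled in lung, and none is filled in blood. SEs in lung are wider at 6 months, with 2 air libraries and more spread among silica lungs, than at 1 day.

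The 6-month calls in lung rest on 2 air libraries, and both are needed. Without air library 19-24 none of the 10 genes was called, with adjusted p from 0.0894 (Srxn1) upward, and without air library 20-25 Srxn1 alone was called (0.0444). With 1 air library left, its spread is taken from the silica lungs. The fold changes themselves moved less: Slc7a11 stood at log2 2.52 and 2.77 and Hmox1 at 1.51 and 1.68 without the one or the other. Nqo1, Gsr and Nfe2l2 also fell out of the calls without silica library 34 (adjusted p = 0.0663, 0.0838 and 0.0792) or 35 (0.0676, 0.0829 and 0.101), and Gsr and Nfe2l2 without silica library 32 (0.0674 and 0.0768).

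The 2 air groups were therefore set against each other, a comparison chosen after the data were seen, in 1 fit of the 4 lung groups in which 41.5% of genes differed between the air groups and 9.64% between the silica groups. Age, time since exposure and table of origin cannot be told apart in it. Between the air lungs of 6 months and 1 day, Nqo1 was lower (log2 -0.62 ± 0.17, adjusted p = 0.00745), as was Gsr (-0.23 ± 0.07, adjusted p = 0.0207). Gclm was higher (0.47 ± 0.13, adjusted p = 0.00782), as was Txnrd1 (0.27 ± 0.10, adjusted p = 0.0357). Slc7a11 (-0.30 ± 0.39, adjusted p = 0.566), Hmox1 (0.11 ± 0.17, adjusted p = 0.640), Srxn1 (-0.17 ± 0.19, adjusted p = 0.497) and Mt2A (0.03 ± 0.33, adjusted p = 0.960) did not pass. Without air library 19-24 none of these 4 calls stood, and without 20-25 those for Nqo1 and Gclm did. Txnrd1 was also lost without air library 02-07, 05 or 06 of 1 day (adjusted p 0.0618 to 0.0830), while Gclc (-0.26 ± 0.10, adjusted p = 0.0586) passed without silica library 32, 33 or 35 (0.0233 to 0.0424) and Nfe2l2 (-0.17 ± 0.07, adjusted p = 0.0528) without silica library 33 (0.0282). Between the silica lungs of 6 months and 1 day Hmox1 (0.72 ± 0.12, adjusted p = 0.00208), Srxn1 (0.60 ± 0.13, adjusted p = 0.00943) and Txnrd1 (0.26 ± 0.07, adjusted p = 0.0262) were higher, while Nqo1 (0.25 ± 0.11, adjusted p = 0.146) and Gclm (-0.004 ± 0.09, adjusted p = 0.981) did not pass. Slc7a11 (0.67 ± 0.23, adjusted p = 0.0747) passed without silica library 30-31 (0.0341) or 33 (0.0339) and Nfe2l2 without 30-31 (0.0265), and Txnrd1 was lost without silica library 14 (0.0602) or 34 (0.0593).

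With the air lungs of 1 day in place of those of 6 months as the reference for the late silica lungs, an alternative chosen after seeing the data, Slc7a11 (log2 2.29 ± 0.33, adjusted p = 0.00330), Hmox1 (1.65 ± 0.17, 0.00110), Srxn1 (1.62 ± 0.18, 0.00142) and Mt2A (1.34 ± 0.28, 0.0141) were called as before. Txnrd1 was called as well (0.50 ± 0.09, adjusted p = 0.00786). Nqo1 (0.14 ± 0.13, adjusted p = 0.497), Gsr (0.15 ± 0.07, 0.177) and Nfe2l2 (0.21 ± 0.07, 0.0821) were not, and Gclm was at -0.06 ± 0.12 (0.747). The calls for Slc7a11, Hmox1, Srxn1 and Mt2A thus stood with either air group as the reference, and those for Nqo1, Gsr and Nfe2l2 with the 6-month one alone.

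The silica effect was then compared between times as an interaction, late minus early, in which 26.8% of all genes were called. It was larger at 6 months for Nqo1 (0.87 ± 0.20, adjusted p = 0.00544), Srxn1 (0.77 ± 0.23, adjusted p = 0.0211), Hmox1 (0.62 ± 0.21, adjusted p = 0.0366), Nfe2l2 (0.30 ± 0.08, adjusted p = 0.0157) and Gsr (0.30 ± 0.09, adjusted p = 0.0210). It was lower for Gclm (-0.48 ± 0.16, adjusted p = 0.0357). For Slc7a11 the difference of 0.97 ± 0.45 did not pass (adjusted p = 0.128), nor did those for Gclc, Txnrd1 and Mt2A. Without air library 19-24 of 6 months none of the 6 calls stood, and without 20-25 those for Nqo1, Gsr and Nfe2l2 did. The calls for Hmox1 and Gclm were also lost without single other libraries, Hmox1 without any of 5 (air 05 and silica 11, 12, 34 and 35, adjusted p 0.0513 to 0.0753) and Gclm without any of 7 (air 02-07, 05 and 06 and silica 11, 12, 13 and 15, 0.0536 to 0.0711).

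Cell type markers also differed between silica and air lungs. Among all genes tested 7.61% were called higher and 4.07% lower at 1 day, and 9.51% and 10.1% at 6 months. A count of markers near these shares, such as 1 of 10 or 1 of 11, says nothing particular about that cell type. At 1 day 7 of 12 neutrophil markers tested rose, and their summed level was 368.0 to 447.0 CPM in air and 1190 to 1615 CPM in silica. Of 13 macrophage markers tested 8 rose and 1 fell, and their sum was 822.9 to 882.4 CPM in air and 1002 to 1141 CPM in silica. Markers of alveolar type 2 cells rose in 7 of 10, with sums of 22722 to 25273 CPM and 28469 to 32209 CPM. At 6 months the neutrophil sum was 187.1 and 242.8 CPM in air and 1181 to 3283 CPM in silica (9 of 12 tested rose), with the granule gene Ltf at 0 in air and at 0.126 CPM or less in silica at both times. The macrophage sum was 1111 and 1117 CPM in air and 1071 to 1418 CPM in silica (5 of 14 rose and 1 fell), and the type 2 sum 13958 and 16909 CPM against 25421 to 55000 CPM (8 of 10 rose). Natural killer and large granular lymphocyte markers were lower in silica at 6 months in 11 of 14 tested, and called in none of 14 at 1 day. Of monocyte markers 3 of 8 rose at 1 day and 6 of 8 at 6 months, and of T cell markers 7 of 10 rose and 2 fell at 6 months while their sum was lower (746.6 and 901.8 CPM in air, 257.0 to 487.8 CPM in silica). At 1 day 5 of 10 markers fell for each of alveolar type 1 and endothelial cells. At 6 months the type 1 sum was higher in silica (6156 and 6202 CPM in air, 6906 to 7234 CPM in silica, 1 of 10 called higher), and 1 of 10 endothelial markers was lower. The airway marker sum was 2449 and 4552 CPM in air and 4867 to 9442 CPM in silica at 6 months, highest in library 33, with 1 of 11 called higher. Silica library 30-31, the lowest of its group in Hmox1, Srxn1, Mt2A, Gsr, Nfe2l2 and Nqo1, was also the lowest in the neutrophil, macrophage and type 2 sums and the highest in the lymphocyte sum (1576 CPM). Silica library 33 held the highest neutrophil and type 2 sums at 6 months. Without library 33 the log2 fold change was larger for Slc7a11 (2.78), Gsr (0.44), Txnrd1 (0.33) and Gclc (0.32). It was smaller for Srxn1 (1.76), Hmox1 (1.51), Mt2A (1.21) and Nqo1 (0.70), Nfe2l2 stayed at 0.41 and Gclm moved to -0.47. The share of these cell types in the differences of the 10 genes was not tested.

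**Figure D3:**
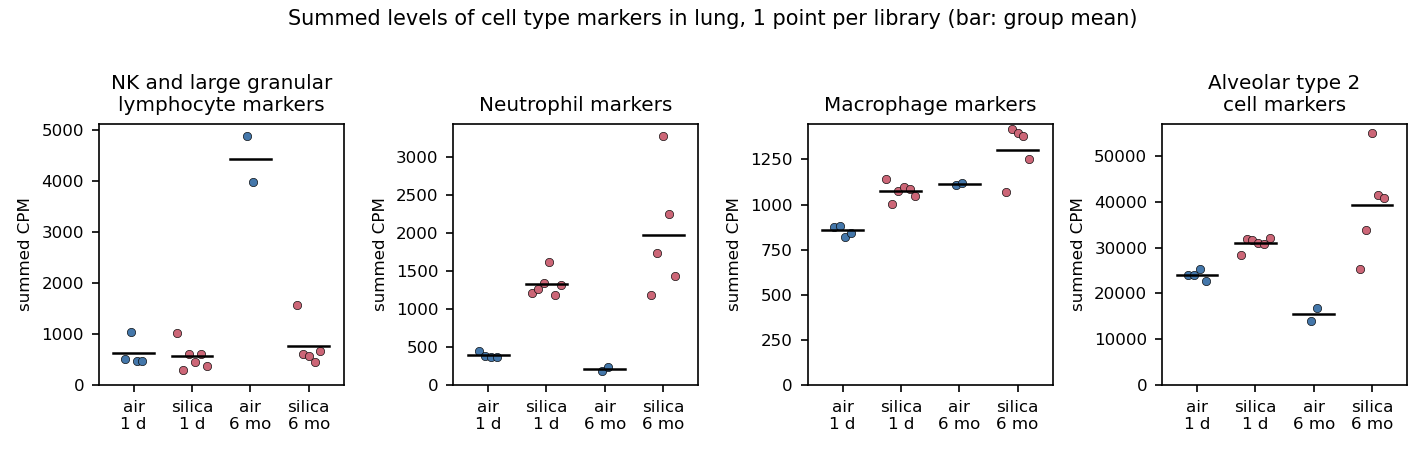
Summed CPM of markers of 4 cell types (y axes, linear from 0) in lung libraries of the 4 groups, with 1 point per library and a bar at the group mean. The 2 air lungs of 6 months stand apart at 3978 and 4885 CPM in natural killer and large granular lymphocyte markers, and neutrophil markers are higher in every silica lung than in any air lung.

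Over the 17 lung libraries, log2 CPM of Slc7a11 ran most nearly parallel to Sel1l3 (Pearson r = 0.96), Atp8a1 (0.956) and Csf2rb (0.954), the last a shared receptor chain for myeloid growth factors. Hmox1 was closest to Slc7a7 (0.985), an exporter of cationic amino acids, to Cfi (0.98), the complement factor I gene, and to Slamf8 (0.978), a receptor of myeloid cells. Mt2A was closest to Ccl22 (0.926), a chemokine gene, to Fcrl2 (0.924) and to Saal1 (0.917). These are the 3 highest of 15654 genes for each, a description with no test, and the libraries share their exposure groups.

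Around the 10 genes, 8 further groups of genes were counted in lung, to be read against the 11.7% of all genes called at 1 day and the 19.6% at 6 months. A group's count at or near that share says nothing particular about the group. Every 6-month call in these 8 groups was lost without air library 19-24, and without 20-25 the glutathione, thioredoxin and metal groups held 0 called genes. Of other NRF2 targets, 8 of 31 tested rose and 3 fell at 1 day (median log2 0.09), and 7 rose and 1 fell at 6 months (median 0.51). The number that rose was 3 at 1 day with all 4 lung groups in 1 fit, and at 6 months it was 14 with DESeq2, 19 in the 4-group fit and 21 with each library as a separate sample. With 1 library left out it ran from 6 to 9 at 1 day and from 0 to 12 at 6 months, where 4 rose without air library 20-25, 3 without silica library 34, 4 without 35, 11 without 30-31 and 12 without 33. The largest at 1 day were the NADPH-making Idh1 (0.55 ± 0.06, adjusted p = 4.27e-05) and Me1 (0.42 ± 0.07, 0.00240) and the aldo-keto reductase gene Akr1b8 (0.36 ± 0.05, 7.21e-04). At 6 months they were the glutathione peroxidase gene Gpx2 (1.21 ± 0.31, adjusted p = 0.0312), Me1 (1.11 ± 0.17, 0.00838) and Idh1 (1.04 ± 0.17, 0.00882). The regulators, among them Keap1, Bach1 and Mafg, were called in 0 of 13 at 1 day and 0 of 14 at 6 months by edgeR. At 6 months DESeq2 called 2 higher and 2 lower, and the 4-group fit and the separate samples each called 3 higher and 4 lower. Other glutathione genes rose in 5 of 21 and fell in 2 at 1 day, with the gamma-glutamyltransferase gene Ggt5 (0.62 ± 0.12, adjusted p = 0.00374) and the glutaredoxin gene Glrx (0.39 ± 0.05, 3.86e-04) up and the plasma peroxidase gene Gpx3 (-0.26 ± 0.06, 0.0107) down. At 6 months 7 of 21 rose and none fell, led by the microsomal transferase gene Mgst1 (1.39 ± 0.25, adjusted p = 0.0116), Glrx (1.33 ± 0.24, 0.0117) and Ggt5 (1.27 ± 0.37, 0.0483). That count was 3 with the 1-day air lungs as reference, 4 with no filter, 11 with DESeq2 and 13 in the 4-group fit or with separate samples. It was 4 without silica library 32, 2 without 34 or 35 and 11 without 33, and the 1-day count of 5 was 0 in the 4-group fit and 3 without air library 04-08 or 06.

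Of 15 other thioredoxin and peroxiredoxin genes 4 rose and 1 fell at 1 day. The largest were the reductase gene Txnrd3 (0.51 ± 0.09, adjusted p = 0.00318), the peroxiredoxin gene Prdx5 (0.38 ± 0.06, 7.38e-04) and the methionine sulfoxide reductase gene Msrb1 (0.32 ± 0.06, 0.00523). At 6 months Msrb1 (1.07 ± 0.26, adjusted p = 0.0271) and Txnrd3 (0.88 ± 0.22, 0.0290) were the 2 that rose. Under other settings 2 to 8 thioredoxin genes rose at 6 months and 1 to 4 at 1 day, and with 1 library left out 0 to 5 and 3 to 4. Of the metal genes 3 of 11 rose at 1 day, all zinc transporters: Slc39a8 (0.44 ± 0.07, adjusted p = 9.00e-04), Slc30a7 (0.24 ± 0.07, 0.0311) and Slc39a1 (0.19 ± 0.04, 0.0105). At 6 months 3 of 12 rose, Slc39a4 (0.98 ± 0.22, adjusted p = 0.0216), Slc39a8 (0.71 ± 0.15, 0.0191) and Slc39a1 (0.39 ± 0.11, 0.0499), with 1 to 3 under other settings and 0 to 3 with 1 library left out. The metal-sensing factor gene Mtf1 did not pass at either time (-0.10 ± 0.06 and -0.21 ± 0.12).

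Haem and iron genes beside Hmox1 rose in 9 of 17 at 1 day (median 0.20) and in 6 of 17 at 6 months (median 0.55), with none lower. With 1 library left out 6 to 8 rose at 1 day (6 without air library 05) and 0 to 10 at 6 months (1 without air library 20-25, 10 without silica library 30-31). The largest at both times were Hpx, which encodes the haem carrier hemopexin (2.12 ± 0.12, adjusted p = 1.29e-07, and 2.56 ± 0.53, 0.0164), Hp, which encodes haptoglobin (1.29 ± 0.06, 3.45e-08, and 2.47 ± 0.51, 0.0160), and the metalloreductase gene Steap4 (0.93 ± 0.18, 0.0105, and 1.40 ± 0.33, 0.0242). Targets of ATF4, a second regulator of Slc7a11, rose in 4 of 20 and fell in 2 at 1 day, with the amino acid transporter gene Slc7a5 (1.00 ± 0.14, adjusted p = 0.00120), Nupr1 (0.69 ± 0.11, 9.28e-04) and Trib3 (0.44 ± 0.10, 0.0156) the largest. At 6 months 4 rose and 3 fell, and the largest were Nupr1 (1.63 ± 0.42, adjusted p = 0.0327) upward and the serine synthesis genes Phgdh (-1.44 ± 0.28, 0.0133) and Psat1 (-1.13 ± 0.18, 0.00859) downward. With 1 library left out 2 to 7 ATF4 targets rose at 1 day and 0 to 5 at 6 months. Glucocorticoid targets were counted because glucocorticoids induce metallothioneins: Fkbp5 rose (0.63 ± 0.14, adjusted p = 0.0200) and Errfi1 fell (-0.45 ± 0.11, 0.0226) of 13 at 1 day, and Fkbp5 alone was lower at 6 months (-1.38 ± 0.32, 0.0244). None of these groups was tested as a group, some genes stand in more than 1 of them, and Ggt5 and Nupr1 each stand under 2 identifiers, of which 1 passed.

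The same groups were counted in the late-minus-early comparison of lung, where the silica effect on other NRF2 targets was larger for 13 of 32 and smaller for 1 (median 0.44), beside 26.8% of all genes called in that comparison. The regulators, thioredoxin, metal, ATF4 and glucocorticoid groups below were near or under that share. The ferritin light chain gene Ftl1 (1.14 ± 0.28, adjusted p = 0.00856), the exporter gene Abcc3 (1.08 ± 0.15, 2.37e-04) and the transferase gene Gsta1 (1.04 ± 0.24, 0.00537) differed most. Among the 14 regulators the small MAF gene Maff (-0.91 ± 0.24, adjusted p = 0.0113) and Cul3, which encodes the ligase scaffold that works with KEAP1 (-0.36 ± 0.09, 0.00754), were lower, and Sqstm1 (0.45 ± 0.14, 0.0290) and Mafk, the fourth called and named after its value was seen (0.24 ± 0.08, 0.0425), were higher. Of 21 glutathione genes 9 were higher, with Mgst1 (1.21 ± 0.20, adjusted p = 8.61e-04), Mgst2 (1.05 ± 0.31, 0.0215) and Gpx2 (0.96 ± 0.26, 0.0130) the largest. Of 15 thioredoxin genes Msrb1 (0.72 ± 0.22, adjusted p = 0.0263), Prdx2 (0.67 ± 0.19, 0.0161) and Prdx6 (0.41 ± 0.12, 0.0196) were higher, and of 12 metal genes Slc39a4 alone (1.1 ± 0.20, adjusted p = 0.00124). Of 17 haem and iron genes 6 were higher and 2 lower, the largest being Cd163, the haemoglobin scavenger receptor of macrophages (-1.19 ± 0.31, adjusted p = 0.0106), Hp (1.15 ± 0.40, 0.0444) and Ftl1. Of 20 ATF4 targets 3 were higher and 2 lower, with Psat1 (-1.24 ± 0.35, adjusted p = 0.0166), Cebpb (1.03 ± 0.25, 0.00765) and Slc7a5 (-0.77 ± 0.24, 0.0256) the largest. Of 13 glucocorticoid targets Zbtb16 (-3.81 ± 1.12, adjusted p = 0.0216) and Fkbp5 (-2.04 ± 0.34, 8.51e-04) were lower and Errfi1 (0.81 ± 0.22, 0.0115) higher. These counts rest on the same 2 late air libraries as the calls above.

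In blood, 0% of genes were called at 1 day and at 6 months by edgeR, with 430 of 11876 and 720 of 11615 at an unadjusted p under 0.05, and DESeq2 called 0 and 2. The 9 genes tested had adjusted p of 0.9999 at 1 day and 0.658 or more at 6 months. The median log2 fold change of the 9 was 0.16 and 0.28, against -0.0104 and 0.0051 over all genes tested. Mt2A had at most 4 counts in any blood library, did not pass the filter and was not tested. It was at 0 to 0.159 CPM after scaling, and a count of 0 allows up to 0.171 to 0.282 CPM by library total.

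Gsr was the nearest to a change in blood. It was at 58.0 to 86.2 CPM in air (median 78.4) and 80.2 to 109.8 CPM in silica (median 97.4) at 1 day (log2 0.33 ± 0.13, unadjusted p = 0.0186), and at 37.3 to 68.7 CPM (median 59.4) and 56.4 to 86.9 CPM (median 74.4) at 6 months (log2 0.35 ± 0.16, unadjusted p = 0.0404). The ranges overlap at both times and neither passed after adjustment. The genes with clear rises in lung had overlapping ranges in blood. Slc7a11 was at 5.95 to 9.13 CPM in air and 2.94 to 12.8 CPM in silica at 1 day (log2 0.18 ± 0.26), and at 1.45 to 9.90 CPM and 6.31 to 10.2 CPM at 6 months (0.28 ± 0.33). Hmox1 was at 8.73 to 12.1 CPM and 9.08 to 15.3 CPM at 1 day (0.30 ± 0.16), and at 8.94 to 12.8 CPM and 7.99 to 16.1 CPM at 6 months (0.07 ± 0.20). Srxn1 was at 8.24 to 9.85 CPM and 8.98 to 12.5 CPM at 1 day (0.16 ± 0.12), and at 3.41 to 9.69 CPM and 8.69 to 12.4 CPM at 6 months (0.36 ± 0.21). Of the others, Nqo1 stood at 0.23 ± 0.13 and 0.39 ± 0.21, Gclc at -0.19 ± 0.16 and -0.04 ± 0.14, Txnrd1 at 0.07 ± 0.13 and 0.02 ± 0.10, and Nfe2l2 at 0.03 ± 0.16 and 0.22 ± 0.14. Air library 25 of 6 months held the lowest Slc7a11, Nqo1, Srxn1, Gsr, Gclm, Hmox1 and Nfe2l2 of its group, and had a lymphocyte marker sum of 2524 CPM where the median of its group was 676.9 CPM. Its TMM factor was 1.93, against 0.902 to 1.09 in the rest of its group, and this lowers all its scaled CPM. Without air library 25 no gene of the 9 was called either, and the fold changes at 6 months were smaller: Slc7a11 0.04, Srxn1 0.16, Nqo1 0.20, Gsr 0.23, Gclm 0.31, Nfe2l2 0.11 and Hmox1 -0.01.

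**Figure D4:**
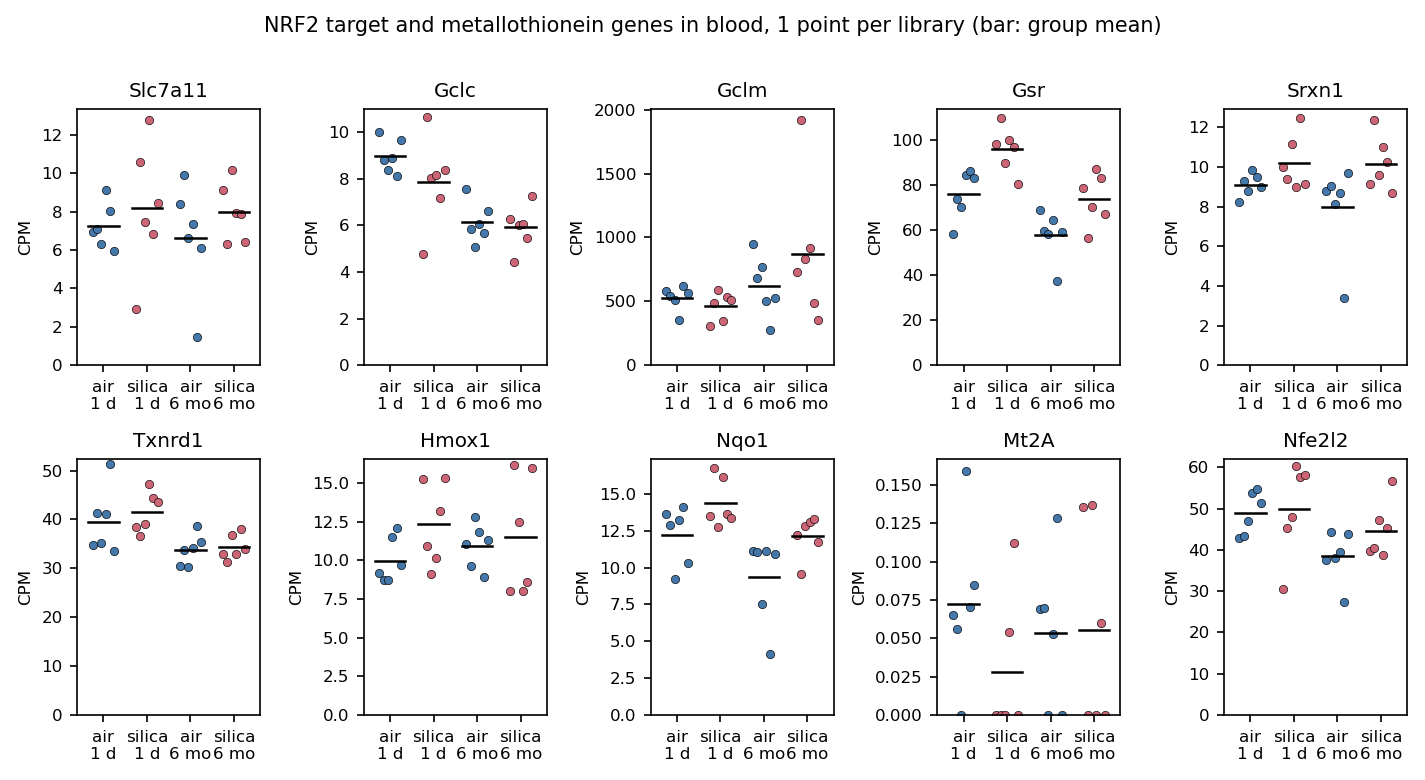
CPM of the 10 genes (y axes, linear from 0) in blood libraries of the 4 groups, with 1 point per library and a bar at the group mean. Air and silica ranges overlap in every panel, Gclm is at 277.9 CPM or more and Mt2A is at or near 0.

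Gclm had a level of its own in blood. It was at 352.9 to 619.6 CPM in air and 308.4 to 590.2 CPM in silica at 1 day (log2 -0.19 ± 0.18), and at 277.9 to 949.3 CPM and 356.3 to 1920 CPM at 6 months (0.50 ± 0.39), where no lung library held more than 36.8 CPM. The 6-month fold change was 0.10 without silica library 31, 0.09 with no scaling beyond library size and 0.66 without air library 19. Across the 24 blood libraries log2 CPM of Gclm followed the log2 summed CPM of erythroid markers with Pearson r = 0.917 (permutation p = 1e-05, the smallest that 100000 resamples can give, and 9.00e-05 adjusted over 9 genes) and Spearman rho = 0.811 (p = 2.00e-05, adjusted 1.80e-04). The relation was chosen after the values were seen, and both quantities are shares of the same TMM-scaled library totals. The TMM factor divides both alike, and at 6 months it was 1.93 in air library 25 and 0.521 in silica library 31. The part of this shared scaling in the relation was not tested. Without the 2 libraries farthest from the median in erythroid markers r was 0.848, and within the 12 libraries of 1 day and the 12 of 6 months it was 0.584 and 0.978. Erythroid sums were 22434 to 153102 CPM at 6 months, lowest in air library 25 and highest in silica library 31, which also held the lowest and highest Gclm, while silica library 11 of 1 day lay below the others (308.4 CPM at an erythroid sum of 57126 CPM). Of the other 8 genes Txnrd1 ran against the erythroid sum by rank (rho = -0.600, permutation p = 0.00226, adjusted 0.0102; r = -0.475, p = 0.0184, adjusted 0.0552, and -0.477 without the 2 farthest; -0.283 at 1 day and -0.635 at 6 months). For Srxn1 r was 0.602 (permutation p = 0.0103, adjusted 0.0464) with rho at 0.193, and r fell to 0.0459 without the 2 farthest libraries, so that relation rests on them. The other 6 had adjusted p of 0.0616 or more by either measure.

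**Figure D5:**
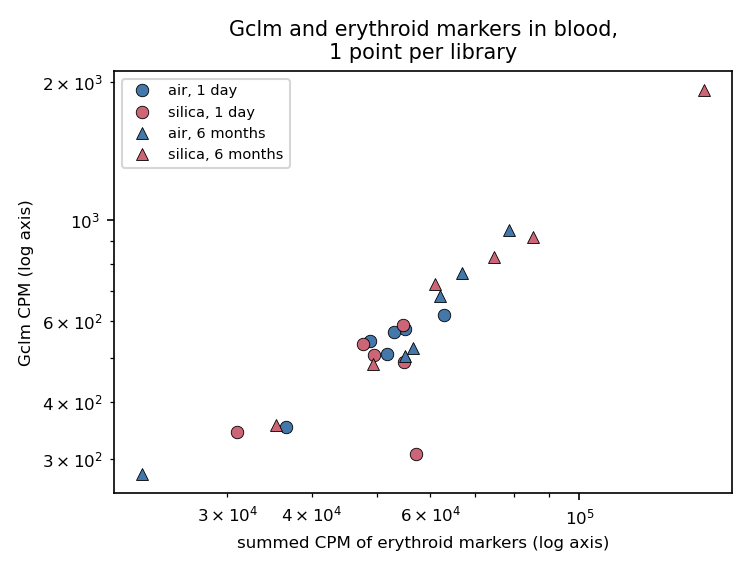
Gclm CPM against the summed CPM of erythroid markers (both log axes) in the 24 blood libraries, coloured by exposure and shaped by time. Points rise together (r = 0.917 on log2 values), with silica library 31 of 6 months at the top right (1920 CPM) and air library 25 at the bottom left.

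The silica effect was compared between tissues as an interaction, lung minus blood, in which 0.192% of genes were called at 1 day and 1.17% at 6 months. Srxn1 passed at 1 day (0.82 ± 0.15, adjusted p = 0.0158), and Hmox1 (1.65 ± 0.34, adjusted p = 0.0221) and Srxn1 (1.61 ± 0.37, adjusted p = 0.0345) at 6 months, where the median over all genes was 0.14. Among the gene groups above, Slc11a2 (0.68 ± 0.14, adjusted p = 0.0354) passed at 1 day and Hp (2.06 ± 0.49, adjusted p = 0.0405) at 6 months. With a replicate block by the number that lung and blood titles share, Srxn1 (0.77, adjusted p = 0.715, and 1.13, 0.491) and Hmox1 (1.42, 0.387) were not called. That fit kept only numbers found in both tissues and did not average the near-identical lungs, so the block was not its only difference. Slc7a11 did not pass at 1 day (1.40 ± 0.37, adjusted p = 0.200) or at 6 months (2.47 ± 0.64, adjusted p = 0.0678), and it passed at 1 day without blood silica library 11 (1.23, adjusted p = 0.0267) and at 6 months without blood air library 25 (2.75, adjusted p = 6.72e-04) or lung silica library 30-31 (2.57, adjusted p = 0.0429). Srxn1 was not called at 1 day without lung air library 05 (adjusted p = 0.0693) or 06 (0.0720). At 6 months neither gene was called without lung air library 19-24 (Hmox1 0.384, Srxn1 0.406) or 20-25 (0.105 and 0.178), and Srxn1 was lost without any 1 of 12 further libraries (adjusted p 0.0537 to 0.0650). In blood the silica effect did not differ between times for any of the 9 genes (0% of 12264 genes called by edgeR, 335 at an unadjusted p under 0.05; adjusted p of 0.999 or more for the 9).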

How the data were processed

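Lung and blood RNA from 46 samples was sequenced as stranded messenger RNA libraries. Per the submitters' processing notes, reads were handled with bcl2fastq 2.19, cutadapt 3.4, Trim Galore 0.6.7, STAR 2.6.1d and Salmon 1.10.1 on build Rnor_6.0. The sources used here do not name the annotation release. The deposited tables, 1 per tissue and time, hold the authors' estimated counts per gene, which were rounded here. Strand and multi-mapping settings are not named either, so genes that overlap or share sequence are uncertain.

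The 5 near-identical lung pairs were found with a chi-square test over genes with a mean of 20 counts or more and whole counts in both libraries (under 10% of genes at p under 0.05), a restriction chosen after seeing the data. The labels do not say that samples of a group are separate animals, so p-values rest on a spread that may be partly technical. Tests were edgeR 4.0.16 quasi-likelihood fits (R 4.3.3, limma 3.58.1, TMM factors, robust, filterByExpr with a minimum count of 10) with Benjamini-Hochberg adjustment over all genes tested. Each comparison was fitted on its own groups, interactions on their 4 groups. The SE is the size of the log2 fold change divided by the square root of its F value. CPM use TMM-scaled totals, with factors fitted separately for each tissue and time, and a count of 0 is read as up to 3 counts. Small differences in CPM between times may thus come from the scaling. The tables hold no row without a gene name, and no column was left unmatched.

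The members and gene lists were chosen with earlier results of these data known. Named are all 10 members, the 3 largest called genes of each list per comparison, and for Slc7a11, Hmox1 and Mt2A the 3 genes of highest Pearson r. Alternatives were other scaling, no filter, separate samples, DESeq2 1.42.0, a fit of all 4 groups of a tissue, a replicate block, each library left out, and, chosen after seeing the data, the 1-day air lungs as reference. The scripts were tested on simulated data with known changes in well-counted genes. Each simulation changed 200 genes, fewer than the 1836 and 3189 called in lung at 1 day and 6 months. Recovery in the real lung data may thus differ from the counts given here. Of 67 genes changed 1.5-fold, 59 were recovered for lung at 1 day, 4 for lung at 6 months and 10 for blood at 6 months. At 2-fold 63, 30 and 41 of 67 were recovered. A gene that did not pass at 6 months may thus still differ by such a step.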

Additional observations from a re-analysis of the deposited data

Results flagged for a closer look

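Among groups of 4 to 10 libraries, 5 of 66 held a library far from the rest, where chance gives about 1 in 20. Gclm was at 1920 CPM in blood silica library 31 of 6 months, against 356.3 to 917.6 CPM in the other 5. The TMM factor of that library was 0.521 (others 0.699 to 1.39), which raises all its values. In lung at 1 day, silica library 10 held both the lowest Gclm of its group, 21.5 CPM (others 25.4 to 27.02 CPM), and the highest Mt2A, 11.5 CPM (others 6.32 to 8.14 CPM). The same library stood apart from the other silica lungs of 1 day in the summed level of immediate-early and heat-shock genes (2435 against 1573 to 1671 CPM), in glucocorticoid targets (1774 against 1352 to 1533 CPM, with 1479 to 1890 CPM in air) and in T cell markers (353.6 against 210.4 to 245.4 CPM). Their part in its Gclm and Mt2A levels was not tested. Blood air library 25 of 6 months had Gsr at 37.3 CPM (others 58.0 to 68.7 CPM) and Srxn1 at 3.41 CPM (others 8.13 to 9.69 CPM). CPM are divided by a TMM factor, which was 1.93 in this library (others 0.902 to 1.09) and lowers all its values. These 2 low values are thus relative to that scaling. The air lungs of 6 months, with 2 libraries, could not be checked in this way.

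The silica effect in lung differed between times in an interaction test for Nqo1 (0.87, late minus early, log2), Srxn1 (0.77), Hmox1 (0.62), Gsr (0.30), Nfe2l2 (0.30) and Gclm (-0.48). It differed between tissues for Srxn1 at 1 day (0.82, lung minus blood) and for Hmox1 (1.65) and Srxn1 (1.61) at 6 months. All of these except Srxn1 at 1 day use the 2 late air lungs, and without air library 19-24 none of those was called.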

How the results depend on the processing

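Of the 10 genes, with single libraries left out 4 to 5 were called in lung at 1 day, 0 to 8 at 6 months and 0 to 6 in the late-minus-early comparison, 0 to 2 and 0 to 3 in lung minus blood at 1 day and 6 months, 0 to 6 between the air lungs of the 2 times and 2 to 5 between the silica lungs, with none called in blood under any setting. No called gene changed direction under any alternative run. Lung minus blood was called for 0 genes with no scaling beyond library size at 1 day and for 0 at 6 months (1 and 2 with TMM). With a replicate block by sample number, on shared numbers only and with near-identical lungs not averaged, it was also called for 0 and 0. Srxn1 stood at 0.77 (adjusted p = 0.715) and 1.13 (0.491), and Hmox1 at 1.42 (0.387). Over 17 same-numbered pairs of lung and blood, deviations from group means correlated at -0.0434 to 0.204, above 0.1 in 2, and 3 correlated best with their own number, so a pairing was not visible in the data. Titles of lung and blood share these numbers, and whether they name the same rat is not stated. Without a filter on low counts 2 genes were called between the air lungs (4 with it), and Gsr (adjusted p = 0.0550) and Nfe2l2 (0.0651) were lost at 6 months. Adjusted p over the alternatives at 6 months ran from 0.00277 to 0.747 for Gclm, from 0.00173 to 0.497 for Nqo1 and from 1.06e-09 to 0.0894 for Srxn1, and at 1 day from 8.80e-04 to 0.0651 for Mt2A. Genes called overall moved from 1836 to 594 in lung at 1 day and from 3189 to 6499 at 6 months with all 4 lung groups in 1 fit, to 6396 at 6 months with each library as a separate sample, and in lung minus blood from 31 to 50 and from 193 to 797 with separate samples, to 4 and 4 with the block and to 56 at 6 months without scaling. The share of calls that were higher moved from 65.1% to 52.9% without scaling and to 77.4% in the 4-group fit at 1 day in lung, and from 47.7% to 82.1% without scaling in lung minus blood at 6 months. Without scaling the median of all genes in blood at 6 months was -0.30, so blood values are relative to TMM. In lung, precision is limited by 2 late air libraries, by a wider spread among the late silica lungs and by low counts for Slc7a11 and Mt2A. The standard deviation among silica lungs was 3.59 CPM at 1 day and 28.0 CPM at 6 months for Hmox1, and 1.45 and 6.16 CPM for Srxn1.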
